A study of Homo sapiens with 19 samples.

Results

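The genes described here encode the SRSF and HNRNP families of RNA-binding splicing factors. They were taken as every gene name that begins with SRSF and a digit or with HNRNP in the gene tables of 3 human lymphoma cell lines, and names with a further hyphen or ending in P1 were left out. This gave 38 of the 25365 genes of the OCI-LY10 table, the same 38 of 25267 in the TMD8 table and of 25266 in the SUDHL2 table: 12 SRSF genes, 23 HNRNP genes and 3 HNRNP pseudogenes. The names left out were HNRNPA3P1, HNRNPU-AS1 and HNRNPUL2-BSCL2.

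OCI-LY10, TMD8 and SUDHL2 are established lines of diffuse large B-cell lymphoma, named ABC DLBCL cell lines in the labels (ABC is the activated B-cell-like subtype). All cells, the controls included, carried a doxycycline-induced short hairpin RNA and were kept in 20 ng/ml doxycycline for 2 days. The control groups carried the control hairpin (named shsc4), and the other groups carried 1 of 2 hairpins against the transcription factor EGR1, shEGR1#8 or shEGR1#9. RNA was sequenced from 15 libraries: 3 per hairpin in OCI-LY10, and 1 per hairpin in TMD8 and in SUDHL2. The labels do not say whether the 3 OCI-LY10 libraries per hairpin are separate cultures, and p-values then speak only of the spread among them, which may be technical. Values are FPKM, sequenced fragments scaled to gene length and library size. In these bulk cultures fewer cells of a kind and less RNA per cell cannot be told apart.

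EGR1 itself checks the hairpin labels, and in OCI-LY10 and TMD8 it was not lower in the libraries labelled shEGR1. In OCI-LY10 it was at 8.57, 9.59 and 12.3 FPKM in the controls, 10.04, 11.4 and 20.5 with the shEGR1#8 label, and 10.8, 11.8 and 22.7 with the shEGR1#9 label (log2 difference 0.42, SE 0.267, limma adjusted p = 0.349). In TMD8 it was at 7.31 FPKM in the control, 10.8 with shEGR1#8 and 9.95 with shEGR1#9. In SUDHL2 it was lower with both labels, 17.0 FPKM in the control, 13.7 with shEGR1#8 and 15.4 with shEGR1#9. With 1 library per label in these lines, the spread is not known. Every direction below is therefore a difference between labels, not a shown effect of less EGR1 RNA. FPKM summed to 431993 to 445028 in the OCI-LY10 libraries, and 10319 to 10499 genes reached 1 FPKM. The sequencing depth is unknown, so no counting interval is printed. The share of the FPKM in genes of short RNAs was 0.470 to 0.612% in OCI-LY10 and 52.6 to 54.7% in SUDHL2. In TMD8 it was 36.3% in the control and 62.1% and 58.0% in the shEGR1#8 and shEGR1#9 libraries. Across 9599 genes, the TMD8 control correlated at 0.838 and 0.845 with the hairpin libraries of its own label (Pearson r across genes of log2 values). With the SUDHL2 libraries it correlated at 0.795 to 0.861, and these ranges overlap. The TMD8 shEGR1 libraries correlated at 0.849 to 0.892 with the SUDHL2 libraries, above their values with the TMD8 control. The TMD8 and SUDHL2 values are given as differences between labelled libraries.

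The B-cell markers MS4A1, CD79A, CD79B, PAX5 and CD22 were all tested in OCI-LY10. Their summed level was 1928 to 2061 FPKM in the controls, 2201 to 2471 with shEGR1#8 and 2237 to 2330.05 with shEGR1#9. The sum joins genes that differed in direction: CD79A had means of 591, 939 and 916 FPKM (control, shEGR1#8, shEGR1#9) with all shEGR1 libraries above the controls, MS4A1 had means of 323, 272 and 272 FPKM with all of them below, and CD79B, PAX5 and CD22 overlapped. The summed 8 markers of T and NK cells were at 20.2 to 23.4 FPKM in the controls, 31.7 to 38.3 with shEGR1#8 and 33.9 to 36.7 with shEGR1#9, nearly all from CD247 and PRF1, while CD3G, CD2, NKG7 and GNLY were listed at 0 in all 9 libraries. Myeloid markers summed to at most 0.0793 FPKM. Fibroblast and epithelial markers summed to 6.11 to 6.31 FPKM in the controls, 6.78 to 8.68 with shEGR1#8 and 6.96 to 7.88 with shEGR1#9, nearly all from EPCAM, and erythroid and endothelial markers to 4.67 to 5.68, 4.14 to 5.82 and 4.99 to 5.57 FPKM, nearly all from PECAM1. The part of these marker differences in the results below was not tested.

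Splicing removes introns and joins exons, and which exons are joined depends on proteins that bind the RNA near splice sites. SR proteins, which the SRSF genes encode, carry RNA-recognition motifs and a domain rich in arginine and serine, and they are best known for binding exonic enhancers and helping exons to be included. The hnRNP proteins are abundant nuclear proteins that coat nascent RNA, and many of them are best known for silencing exons in competition with SR proteins, though the outcome depends on where they bind. Many genes of both families regulate their own RNA through exons whose inclusion sends it to nonsense-mediated decay.

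Because the study targets EGR1, the member promoters were searched for its binding motif in RefSeq windows of assembly GRCh38.p14, from 250 bases before to 50 after each annotated start. The motifs were GCGTGGGCG and GCGGGGGCG on either strand. Of the 38 genes, 33 had at least 1 window, 47 windows in all. The stretches of 250 bases before the start are shown for HNRNPF, the member with the largest difference of those that passed the test in OCI-LY10, for HNRNPH2, the only called member that was higher, and for HNRNPDL, which holds the motif. HNRNPF lies at chr10:43408858-43409107 on the minus strand, HNRNPH2 at chrX:101407972-101408221 on the plus strand and HNRNPDL at chr4:82430463-82430712 on the minus strand. Sequences run 5′ to 3′ in the direction of transcription, and capitals mark the motif.
HNRNPF: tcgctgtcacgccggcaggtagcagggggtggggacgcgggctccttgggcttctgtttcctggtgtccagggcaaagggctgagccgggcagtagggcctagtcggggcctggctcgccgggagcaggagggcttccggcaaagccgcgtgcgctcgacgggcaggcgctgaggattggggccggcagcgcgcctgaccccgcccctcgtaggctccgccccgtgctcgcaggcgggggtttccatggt
HNRNPH2: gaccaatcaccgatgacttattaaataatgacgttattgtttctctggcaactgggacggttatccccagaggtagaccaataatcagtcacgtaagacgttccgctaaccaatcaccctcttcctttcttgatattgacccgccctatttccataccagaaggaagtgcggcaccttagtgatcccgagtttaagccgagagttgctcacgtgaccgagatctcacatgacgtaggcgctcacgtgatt
HNRNPDL: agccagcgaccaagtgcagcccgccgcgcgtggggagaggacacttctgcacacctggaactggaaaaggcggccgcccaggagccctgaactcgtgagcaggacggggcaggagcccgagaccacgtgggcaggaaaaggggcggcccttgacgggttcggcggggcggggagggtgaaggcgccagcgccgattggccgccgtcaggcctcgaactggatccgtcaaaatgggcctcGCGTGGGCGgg
A motif stood in 5 of the 47 windows (10.6%) and 4 of the 33 genes (12.1%): HNRNPDL, HNRNPLL, HNRNPM and SRSF12. Among the genes tested in OCI-LY10 it stood in 8.80% of 11242 windows and 11.7% of 7830 genes, and among all RefSeq windows in 5.77% of 35116. In HNRNPDL the match begins 11 bases before one annotated start and 248 before another, at the same genomic position. The match begins 79 bases before the start in HNRNPLL, 122 before it in HNRNPM and 26 before it, on the strand opposite to the gene, in SRSF12. The share of member genes with a match was near that of tested genes, though the 2 sets differ. The member genes include SRSF12, which holds a match, and HNRNPCL1 and HNRNPCL2, which hold none. None of these was tested in OCI-LY10. The 2 windows of HNRNPF, the 2 of HNRNPK and the 1 of HNRNPH2 held neither spelling. HNRNPA1, the other member called in OCI-LY10, had no window and was not searched. A match or its lack describes the letters in the window and says nothing of EGR1 binding.

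In OCI-LY10, 32 of the 38 genes reached 1 FPKM in at least 3 of 9 libraries and were tested, 11 SRSF and 21 HNRNP. SRSF12, HNRNPCL1, HNRNPCL2, HNRNPA1P10 and HNRNPKP3 were listed at 0 in all 9 libraries, and the pseudogene HNRNPA1P33 was at 0 to 0.17 FPKM. The tested genes spanned 6.81 FPKM (SRSF8) to 681 FPKM (HNRNPA1) as means of the 9 libraries. HNRNPA1, HNRNPC (395), HNRNPK (374), HNRNPA2B1 (292) and HNRNPH1 (282) led, and the highest SRSF genes were SRSF2 (227 FPKM) and SRSF3 (197 FPKM). HNRNPLL (12.2 FPKM), SRSF10 (11.1 FPKM) and SRSF8 were the lowest.

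With both shEGR1 labels set against the control, 4 of the 32 genes passed an adjusted p of 0.05 (limma on log2(FPKM + 1), Benjamini-Hochberg over 10612 genes), all of them HNRNP genes: HNRNPF, HNRNPK and HNRNPA1 were lower, and HNRNPH2 was higher. Over all genes tested 8.56% were called, 5.84% higher and 2.71% lower, so 1 of 32 higher and 3 of 32 lower is the members' count to be read against those shares. The remaining 28 members did not pass. The median log2 difference was -0.10 over the 32 members and 0.03 over all genes. Of the 32, 23 were below 0 (71.9%), 7 of 11 SRSF (median -0.02) and 16 of 21 HNRNP (median -0.12). Over all genes tested 4691 of 10612 were below 0 (44.2%). With each library scaled by median ratios the member median was -0.13, and with quantile normalization -0.09. The split of all called genes moved more, from 620 higher and 288 lower to 526 and 379 with median ratios and 444 and 367 with quantile normalization. In the same 32 genes, with values as deposited, all 6 shEGR1 libraries were below all 3 controls for 9 (28.1%) and above them for 2 (6.25%). Over all genes tested the shares were 8.22% below and 12.9% above. The 9 were HNRNPF, HNRNPK, HNRNPA1, HNRNPA1L2, HNRNPC, HNRNPDL, HNRNPAB, SRSF3 and SRSF7, and the 2 were HNRNPH1 and HNRNPH2.

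**Figure D1:**
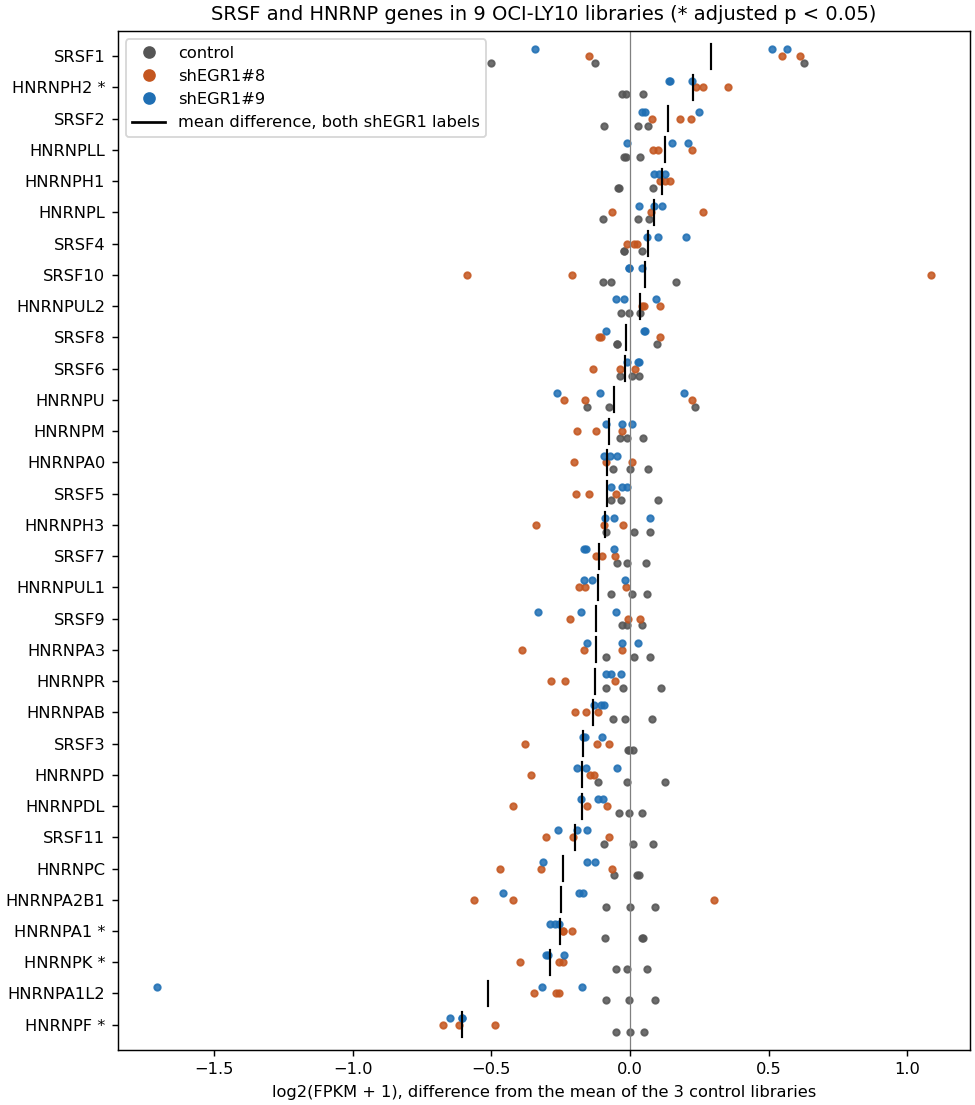
Difference of log2(FPKM + 1) from the mean of the 3 control libraries (x axis) for each of the 32 tested genes (rows, ordered by mean difference) in each of 9 OCI-LY10 libraries (points, coloured by hairpin label); the black tick is the mean difference of both shEGR1 labels and an asterisk marks the 4 genes with adjusted p under 0.05. HNRNPF stands apart at -0.61 with all 6 shEGR1 libraries below the controls, while SRSF1, at the top, has points of every label on both sides of 0.

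The F/H group of hnRNPs (HNRNPF, HNRNPH1, HNRNPH2, HNRNPH3) binds runs of guanine in pre-mRNA, and its called members, HNRNPF and HNRNPH2, lay on opposite sides of the control. HNRNPF read 149, 139 and 144 FPKM in the controls, 89.7, 93.4 and 102 with shEGR1#8, and 94.1, 94.1 and 91.4 with shEGR1#9. The highest shEGR1 library was well below the lowest control. The means were 144 ± 5.07 FPKM (SD, n = 3), 95.1 ± 6.45 (n = 3) and 93.2 ± 1.56 (n = 3), a log2 difference of -0.61 (SE 0.0529, limma adjusted p = 0.000402), or 65.5% of the control level. The labels gave -0.59 (adjusted p = 0.0015) for shEGR1#8 and -0.62 (adjusted p = 0.0013) for shEGR1#9. HNRNPF passed under each of 16 other settings, with log2 differences of -0.64 to -0.58 and limma adjusted p up to 0.0072.

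HNRNPH2, whose protein is close in sequence to that of HNRNPH1, was at 54.6, 54.2 and 57.1 FPKM in the controls, 70.9, 65.3 and 66.6 with shEGR1#8, and 64.7, 61.04 and 61.1 with shEGR1#9. No shEGR1 library overlapped the controls. The means of 55.3 ± 1.55, 67.6 ± 2.95 and 62.3 ± 2.12 FPKM (SD, n = 3 each) gave a log2 difference of 0.23 (SE 0.0482, limma adjusted p = 0.0222). HNRNPH2 passed with shEGR1#8 alone (0.29, adjusted p = 0.0244) and not with shEGR1#9 alone (0.17, adjusted p = 0.135), and the labels themselves did not differ by the test (-0.12, adjusted p = 0.9997). The call was lost on leaving out any control library (limma adjusted p = 0.102, 0.107 and 0.0756 without replicates 1, 2 and 3), shEGR1#9 replicate 1 (0.0531), shEGR1#9 replicate 2 (0.0521), or all libraries numbered 3 (0.0707). Reads can also be split with the readthrough row RPL36A-HNRNPH2, which was at 4.48 FPKM in shEGR1#8 replicate 1 and at 0 in the other 8 libraries. With the 2 rows summed the difference was 0.24 (adjusted p = 0.0342). HNRNPH1 lay higher with both labels, 260 to 283.2 FPKM in the controls, 288 to 295 with shEGR1#8 and 283.7 to 292 with shEGR1#9. The groups did not overlap as deposited, but only by this narrow gap. HNRNPH1 was short of the threshold (log2 difference 0.12, limma adjusted p = 0.149), and with median ratios it differed by 0.09 (adjusted p = 0.280). HNRNPH3 differed by -0.09 and overlapped.

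HNRNPK, which binds cytosine-rich stretches through KH domains, was at 423, 411 and 444 FPKM in the controls, 356, 359.9 and 323 with shEGR1#8, and 360.3, 345 and 346 with shEGR1#9. The lowest control was above every shEGR1 library. The means were 426 ± 16.8, 346 ± 20.4 and 350.4 ± 8.61 FPKM (SD, n = 3 each), a log2 difference of -0.29 (SE 0.0520, limma adjusted p = 0.0116), with -0.30 (adjusted p = 0.0265) for shEGR1#8 and -0.28 (adjusted p = 0.0338) for shEGR1#9. The limma adjusted p was above 0.05 without control replicate 1 (0.0590) or 3 (0.0772) and without the libraries numbered 3 (0.0711).

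HNRNPA1 binds exonic and intronic silencers and shuttles between nucleus and cytoplasm, and it had the highest level of all members. It was at 787, 715 and 785 FPKM in the controls, 659, 643 and 644 with shEGR1#8, and 638, 624 and 631 with shEGR1#9. Its shEGR1 libraries kept within a narrow band below the lowest control. The means were 762 ± 40.5, 649 ± 8.96 and 631 ± 7.26 FPKM (SD, n = 3 each), a log2 difference of -0.25 (SE 0.0459, limma adjusted p = 0.0123), with -0.23 (adjusted p = 0.0422) and -0.27 (adjusted p = 0.0236) for shEGR1#8 and shEGR1#9. Without control replicate 1 (0.0774) or 3 (0.0826), or without the libraries numbered 3 (0.112), the adjusted p was above the threshold.

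**Figure D2:**
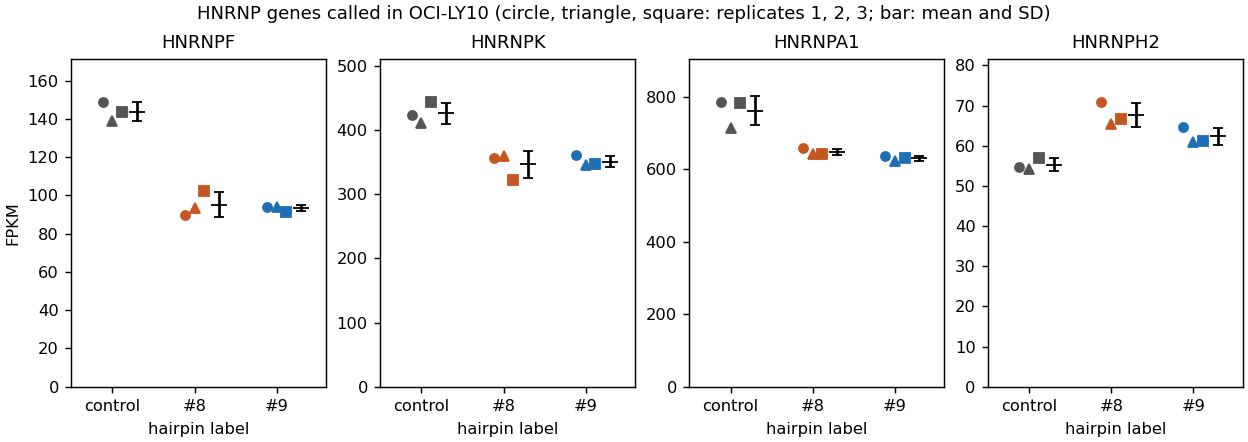
FPKM (y axis, from 0) of HNRNPF, HNRNPK, HNRNPA1 and HNRNPH2 in the 9 OCI-LY10 libraries by hairpin label (x axis); points are replicates and bars the mean ± SD of 3. The 3 control points lie above all 6 shEGR1 points for HNRNPF, HNRNPK and HNRNPA1 and below them for HNRNPH2.

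HNRNPC, which binds uridine tracts and is known for keeping Alu-derived exons out of mRNA, had the second highest level but did not pass. It was at 446, 422 and 449 FPKM in the controls, 351, 419.5 and 317 with shEGR1#8, and 394, 402 and 353 with shEGR1#9. The groups did not overlap, but shEGR1#8 replicate 2 lay just under the lowest control and the spread of that group was wide. The means were 439 ± 15.1, 362 ± 52.3 and 383 ± 26.2 FPKM (SD, n = 3 each), a log2 difference of -0.24 (SE 0.0862, limma adjusted p = 0.119). Without shEGR1#8 replicate 2 the difference was -0.30 (adjusted p = 0.0255).

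HNRNPA2B1, HNRNPA3, HNRNPA0 and HNRNPA1L2 belong with HNRNPA1 to the A/B group. HNRNPA2B1 was at 322, 303 and 343 FPKM in the controls, 217, 397 and 240.2 with shEGR1#8, and 283, 286 and 234 with shEGR1#9. One shEGR1#8 library, replicate 2, was above all controls and the other 5 shEGR1 libraries were below them. The log2 difference was -0.25 (limma adjusted p = 0.387), and without that library -0.38 (adjusted p = 0.0274). HNRNPA1L2, a gene close in sequence to HNRNPA1, was at 32.6, 30.8 and 34.8 FPKM in the controls, 27.2, 27.0 and 25.5 with shEGR1#8, and 28.9, 26.0 and 9.31 with shEGR1#9. Replicate 3 of shEGR1#9 was far below the rest, and the difference of -0.51 did not pass (adjusted p = 0.295). Reads of near-identical copies can be split between HNRNPA1, HNRNPA1L2 and HNRNPA1 pseudogenes, so their separate values are uncertain. HNRNPA1 summed with HNRNPA1L2 and its pseudogenes differed by -0.26 (adjusted p = 0.0116). HNRNPA3 (-0.12) and HNRNPA0 (-0.08) overlapped with the controls.

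HNRNPD, which binds AU-rich elements and is known as a factor in mRNA decay, and its relative HNRNPDL both differed by -0.17 and did not pass (limma adjusted p = 0.184 and 0.172). HNRNPDL was at 84.1 to 89.3 FPKM in the controls, 64.4 to 81.5 with shEGR1#8 and 76.4 to 80.8 with shEGR1#9, without overlap. HNRNPAB was likewise lower without overlap (224 to 246 FPKM against 203 to 215 and 213 to 218, log2 difference -0.13, adjusted p = 0.111). HNRNPL, which binds CA repeats, and HNRNPLL, known in lymphocytes for the splicing of the phosphatase CD45, differed by 0.09 and 0.12 and did not pass. HNRNPR, HNRNPM, HNRNPUL1, HNRNPUL2 and HNRNPU differed by -0.13, -0.07, -0.11, 0.04 and -0.06. HNRNPU, a scaffold protein of the nucleus, lies opposite HNRNPU-AS1, and since strand use in the counting is not stated their reads cannot be told apart.

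Among the SR proteins, 0 of 11 tested genes passed in limma, and 3 had an unadjusted p under 0.05, as had 2767 of all 10612 genes, a like share. SRSF11 had the lowest adjusted p of them, 0.0915: it was at 88.1 to 99.6 FPKM in the controls, 75.9 to 89.03 with shEGR1#8 and 78.3 to 84.3 with shEGR1#9, with the highest shEGR1 library above the lowest control (log2 difference -0.20). It passed without shEGR1#8 replicate 2 (-0.23, adjusted p = 0.0443). SRSF3, the smallest SR protein and a factor in mRNA export, was at 211, 214 and 212 FPKM in the controls, 201, 195 and 163 with shEGR1#8, and 198, 188 and 189 with shEGR1#9, all 6 below the controls (log2 difference -0.17, adjusted p = 0.157). SRSF7, which also has a zinc knuckle, lay at 132.5 to 143 FPKM in the controls and 122 to 131.8 in the shEGR1 libraries, a narrow gap (-0.11, adjusted p = 0.184). SRSF2, an SR protein that is often mutated in myeloid neoplasms, lay the other way (0.14, adjusted p = 0.219) with overlap. SRSF4, SRSF5, SRSF6, SRSF8 and SRSF9 differed by 0.07, -0.08, -0.02, -0.01 and -0.12, with overlap.

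SRSF1, the prototype of the family, had the highest log2 difference of all members (0.29) and one of the widest spreads. It was at 84.8, 144 and 65.1 FPKM in the controls, 136, 142 and 83.5 with shEGR1#8, and 138, 133 and 72.8 with shEGR1#9. Each label had a library under 85 FPKM and at least 1 above 130, so the groups overlapped over nearly their whole range (SE 0.296, limma adjusted p = 0.561). The lowest library under each label was replicate 3. SRSF10, which turns into a splicing repressor when dephosphorylated, was at 9.53, 11.7 and 9.76 FPKM in the controls, 22.9, 6.50 and 8.77 with shEGR1#8, and 10.6, 10.2 and 10.3 with shEGR1#9. Its highest and its lowest value both came from shEGR1#8. HNRNPU was at 159, 121 and 128 FPKM, then 157, 120.5 and 114, then 125, 112 and 155 in the same order of labels, with 1 library near 155 FPKM or above under each label.

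The within-group SD of log2(FPKM + 1) puts numbers on this unevenness. It was 0.514 for SRSF10, 0.507 for SRSF1 and 0.493 for HNRNPA1L2, the 97.8th, 97.7th and 97.6th percentiles of the tested genes. HNRNPA2B1 (0.288, 93.7th percentile) and HNRNPU (0.229, 89.4th percentile) followed. At the other end, HNRNPH1 (0.044) and HNRNPA1 (0.047) were the most even. The median over the 32 members was 0.0905, against 0.114 over all tested genes and 0.103 over 2456 genes of like level.

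**Figure D3:**
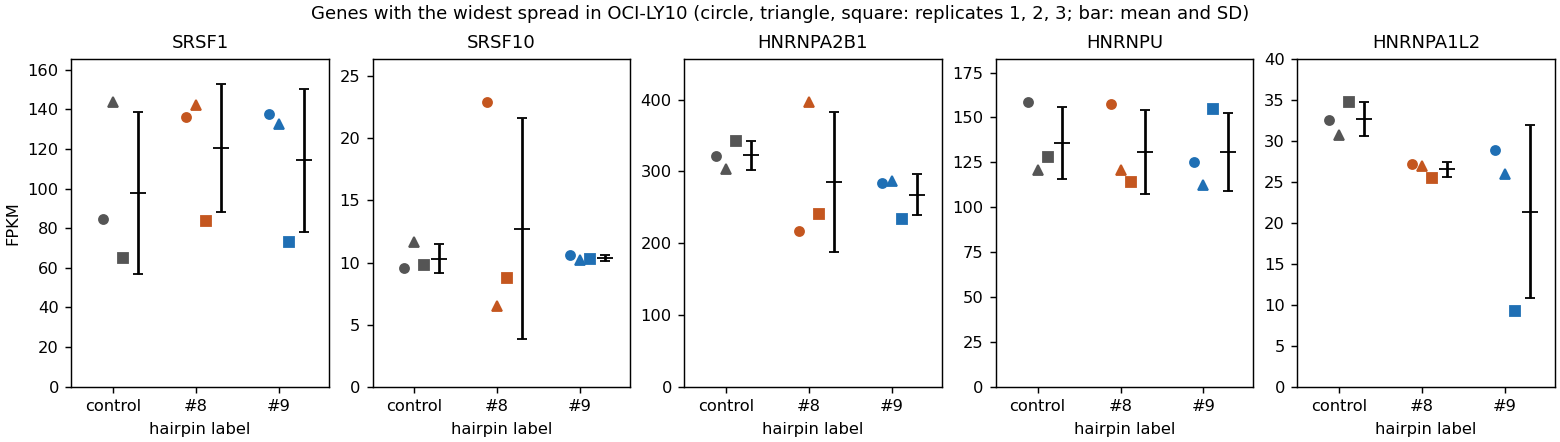
FPKM (y axis, from 0) of SRSF1, SRSF10, HNRNPA2B1, HNRNPU and HNRNPA1L2 in the 9 OCI-LY10 libraries by hairpin label (x axis); circles, triangles and squares are replicates 1, 2 and 3 and bars the mean ± SD. The SD bars of the 3 labels overlap in SRSF1, SRSF10 and HNRNPU. In HNRNPA2B1 the wide shEGR1#8 bar overlaps those of the control and of shEGR1#9, which do not overlap each other. The low point of HNRNPA1L2 is shEGR1#9 replicate 3 at 9.31 FPKM.

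The hairpins were also taken one at a time. For shEGR1#8 the same 4 genes passed, where 5.33% of all genes were called (3.71% higher, 1.62% lower). For shEGR1#9 HNRNPF, HNRNPK and HNRNPA1 passed, where 5.09% of all genes were called (3.55% higher, 1.54% lower). Both contrasts share the control libraries. Between the hairpins themselves limma called 0 of 32 members (0 at an unadjusted p under 0.05) and 0% of all genes, of which 267 had an unadjusted p under 0.05. This does not show that the labels act alike.

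Summed over each family, the 12 SRSF genes came to 1107, 1191 and 1113 FPKM in the OCI-LY10 controls, 1157, 1153 and 1057.5 with shEGR1#8, and 1154, 1109 and 1084 with shEGR1#9. The labels overlapped. The 23 HNRNP genes summed to 4193, 3934 and 4279.5 FPKM in the controls, 3635, 3888 and 3549 with shEGR1#8, and 3799.8, 3715 and 3655 with shEGR1#9. All 6 shEGR1 sums were below the lowest control sum. No test is given for these sums, since the family was chosen with results known.

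In TMD8 each label has 1 library, so there is no replicate check and no test. Differences of log2(FPKM + 1) from the control library were centred on the median of all genes (shifts of -0.09 for shEGR1#8 and 0.0045 for shEGR1#9), and a gene counted as past the fold at 0.5 or more with the same sign in both hairpin libraries. Of 32 members used (10 SRSF, 21 HNRNP and the pseudogene HNRNPA1P10), 13 were lower and 0 higher, against 15.2% lower and 9.99% higher (25.2% in all) of 11807 genes. The member medians were -0.35 and -0.37, and 20 of the 32 were below 0 with both labels, as were 4634 of all 11807 genes. The control library differs from both hairpin libraries in its share of short RNAs, as given above, and the part of that in these differences was not tested. Both hairpin libraries also correlated more closely with the SUDHL2 libraries than with this control, and the part of that was not tested either.

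The lower SR genes in TMD8 were 6 of 10 used. SRSF3 went from 216 FPKM in the control to 86.2 and 98.3 in the shEGR1#8 and shEGR1#9 libraries (centred log2 differences -1.23 and -1.13), and SRSF7 from 135 to 60.7 and 63.2 FPKM (-1.05 and -1.09). These were the largest SRSF differences in the table. SRSF1 went from 137 to 73.2 and 69.0 FPKM, SRSF11 from 57.3 to 34.0 and 30.6, and SRSF6 from 76.4 to 45.4 and 47.1. SRSF2 went from 237 to 146 and 168 FPKM. With shEGR1#9 it was just past the fold (centred -0.502), and not past it without centring (-0.498). SRSF4 (26.3, 27.5 and 26.9 FPKM) and SRSF5 (89.1, 100.1 and 108 FPKM) were not lower. SRSF10, at a mean of 11.1 FPKM in OCI-LY10, was at 0.36 to 0.51 FPKM in TMD8 and 0.32 to 0.53 in SUDHL2. Being under 1 FPKM, it was not used in these 2 lines.

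Among the HNRNP genes 7 of 21 were past the fold in TMD8, all lower. HNRNPA1 was at 769, 382 and 443 FPKM in the control, shEGR1#8 and shEGR1#9 libraries (centred log2 -0.92 and -0.80). HNRNPF was at 187, 89.6 and 127 FPKM (-0.97 and -0.56) and HNRNPK at 429, 281 and 282 FPKM (-0.52 and -0.61). HNRNPA1, HNRNPF and HNRNPK are the 3 genes that were called lower in OCI-LY10. HNRNPC was at 421, 233 and 207 FPKM, HNRNPDL at 140.2, 69.4 and 74.1, and HNRNPLL at 35.4, 15.2 and 18.2. HNRNPH2, higher in OCI-LY10, was at 23.5, 9.57 and 14.5 FPKM in TMD8 (-1.12 and -0.66).

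The values of HNRNPA1 and HNRNPH2 in TMD8 depend on which row took the reads. The pseudogene HNRNPA1P10 was at 266, 351 and 343 FPKM in TMD8, while it was listed at 0 in OCI-LY10. HNRNPA1 summed with its copies was at 1039.7, 738 and 789.6 FPKM, and its centred differences of -0.41 and -0.40 were no longer past the fold. HNRNPH2 summed with RPL36A-HNRNPH2 was at 89.0, 71.3 and 64.1 FPKM (-0.23 and -0.47), not past the fold either.

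In SUDHL2, 1 of the 33 members used was past the fold, HNRNPA1L2, which was lower (6.47 FPKM in the control, then 3.67 and 2.90; centred log2 -0.68 and -0.95), against 2.94% lower and 5.02% higher (7.96% in all) of 11631 genes. The member medians were -0.17 and -0.23, and 24 of 33 were below 0 with both labels, as were 4222 of all 11631 genes. HNRNPF was at 180.2, 125 and 149.9 FPKM (-0.53 and -0.28), HNRNPK at 352, 309.8 and 313 (-0.19 and -0.18) and HNRNPA1 at 692, 499 and 417 (-0.48 and -0.74), each under 0.5 with at least 1 label. HNRNPH2 was at 17.4, 17.0 and 8.89 FPKM, and summed with RPL36A-HNRNPH2 at 65.6, 71.9 and 64.8 FPKM (0.12 and -0.03). With copies summed, HNRNPA1 was at 1179.6, 887 and 906 FPKM.

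**Figure D4:**
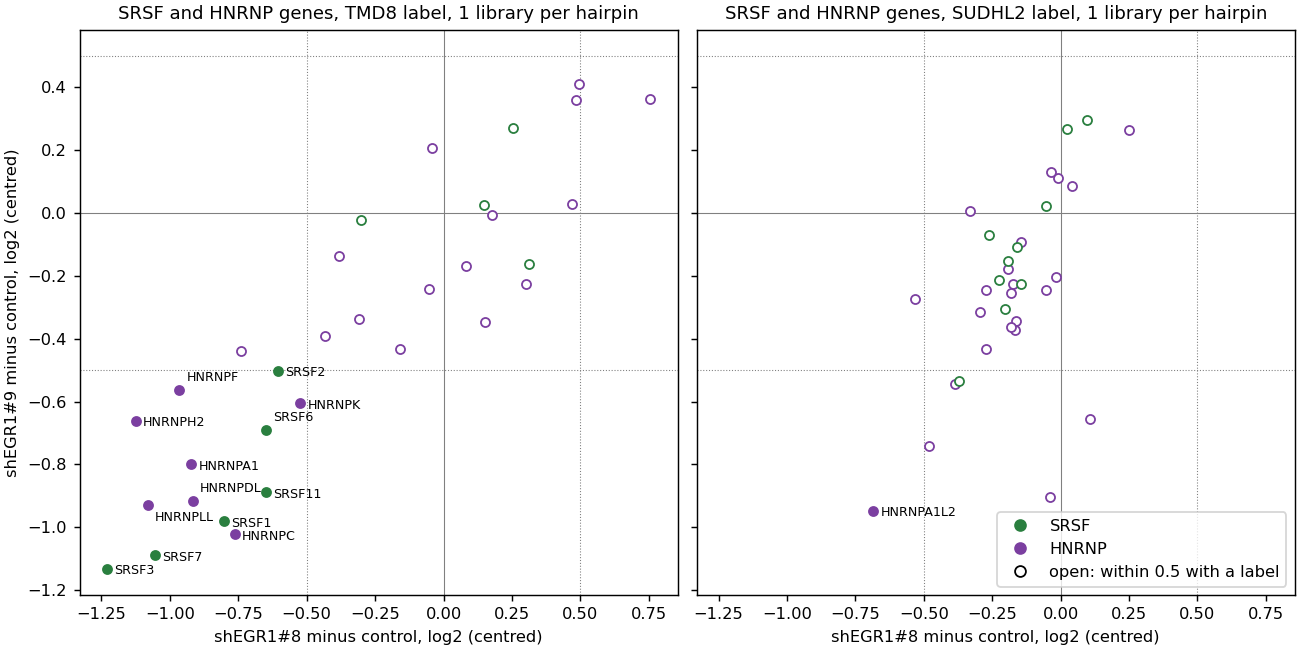
Centred log2(FPKM + 1) difference from the control library with shEGR1#8 (x axis) and shEGR1#9 (y axis) for the members used in TMD8 (left) and SUDHL2 (right), 1 library per label; green points are SRSF and purple points HNRNP genes, and filled, named points are at 0.5 or more with both labels. In TMD8 the 13 filled points lie at lower left, and in SUDHL2 the filled point is HNRNPA1L2. Both axes share the control library.

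Other genes of splicing were read from lists of core spliceosome proteins, of SR protein kinases and SR-related proteins, of further RNA-binding regulators, and of nonsense-mediated decay and exon junction factors. Their counts are to be read against the 8.56% of all genes called, 2.71% lower. In OCI-LY10 limma called 0 higher and 2 lower of 32 core spliceosome genes (median log2 -0.02): SNRPF, a subunit of the Sm ring (128 ± 3.97 FPKM in the controls, 90.9 ± 17.8 with shEGR1#8 and 99.2 ± 8.47 with shEGR1#9, n = 3 each, log2 difference -0.44, SE 0.107, adjusted p = 0.037), and U2AF1, which reads the 3′ splice site (151 ± 3.22, 125 ± 8.29 and 128 ± 5.23 FPKM, n = 3 each, log2 difference -0.25, adjusted p = 0.023). SRPK1, a kinase that phosphorylates SR proteins, was the 1 called gene of 22 in its list, and it was lower (25.4, 21.1 and 21.6 FPKM as means, -0.24, adjusted p = 0.037). Of 29 further regulators 1 was called, MBNL3 (3.01, 2.35 and 2.19 FPKM as means, -0.30, adjusted p = 0.023), and of 15 decay and exon junction factors 1, UPF3A (39.6, 32.6 and 33.4 FPKM as means, -0.25, adjusted p = 0.025). Leaving out any 1 control library ended each of these 5 calls, with limma adjusted p of 0.110 to 0.152 for SNRPF, 0.0797 to 0.122 for U2AF1, 0.104 to 0.152 for SRPK1, 0.0626 to 0.116 for MBNL3 and 0.0687 to 0.142 for UPF3A. The calls were also lost without shEGR1#9 replicate 2 or 3 (0.0786 and 0.0809 for SNRPF, 0.0568 and 0.0550 for U2AF1, 0.0827 and 0.0809 for SRPK1, 0.0612 and 0.0526 for MBNL3, 0.0676 and 0.0633 for UPF3A), and for SRPK1 (0.0709) and MBNL3 (0.0526) without shEGR1#9 replicate 1.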

How the data were processed

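RNA of 15 libraries was read from 3 gene tables that the authors deposited, 1 per cell line, and 4 immunoprecipitation or input samples of the series were not analysed here. The values were taken as FPKM as the authors deposited them. The tables do not name the unit, which was read from values that are not whole and do not sum to 1 fixed total. Bowtie2, HISAT and StringTie with build hg19 are named in the submitters' processing notes, with no versions, and annotation, strand use and scaling are unstated in the sources used. Groups come from sample titles. Repeated lines (4 in OCI-LY10, 10 in TMD8, 10 in SUDHL2) and 430 lines of another table at the end of the SUDHL2 table were left out.

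OCI-LY10 genes with at least 1 FPKM in at least 3 of 9 libraries (10612) were fitted as log2(FPKM + 1) with limma 3.58.1 under R 4.3.3, using a mean for each group and the trend option for the variance. P-values were adjusted over all of them, and an adjusted p under 0.05 was called. Fold changes on this scale understate the change of low genes. TMD8 and SUDHL2, with 1 library per group, had no test: genes with at least 1 FPKM in 1 library were used, and 0.5 log2 after centring was the fold. Since normalization may differ between tables, differences were taken within a table. The fit was tested on simulated data. Other steps used Python 3.11.15, numpy 2.4.6, pandas 2.3.3 and matplotlib 3.10.9.

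The members and the lists were chosen with earlier results of these data known. Full statistics are given for members called with both hairpins and for the 3 of highest level, and in TMD8 and SUDHL2 every member past the fold is named, as is each called in OCI-LY10. Genes of the related lists are named where called. Alternatives were the pseudocount, no filter, other scalings, a replicate block, leaving out libraries and, added after seeing the data, summing rows that share reads. One gene planned as a B-cell marker was left out of that list and is not reported here.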

Additional observations from a re-analysis of the deposited data

Results flagged for a closer look

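Some genes lay on one side of the control in every shEGR1 library of OCI-LY10 and on the other side in both shEGR1 libraries of another line. HNRNPH2 differed by 0.23 (log2) in OCI-LY10, by -1.12 and -0.66 in TMD8 and by -0.04 and -0.90 in SUDHL2. Summed with the readthrough row RPL36A-HNRNPH2 it differed by 0.24 in OCI-LY10, by -0.23 and -0.47 in TMD8 and by 0.12 and -0.03 in SUDHL2, where the opposite direction with both labels was no longer seen. HNRNPH1 differed by 0.12 in OCI-LY10, by -0.05 and -0.24 in TMD8 and by -0.02 and -0.20 in SUDHL2. HNRNPA1L2 differed by -0.51 in OCI-LY10, where shEGR1#9 replicate 3 was far below the rest. In TMD8, at 3.87 to 5.35 FPKM, it differed by 0.47 and 0.03. HNRNPA1 summed with HNRNPA1L2 and its pseudogenes differed by -0.26 in OCI-LY10 and by -0.41 and -0.40 in TMD8, without the opposite direction. These differences between lines were not tested, since TMD8 and SUDHL2 have 1 library per label.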

How the results depend on the processing

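HNRNPF passed under all 16 alternatives in OCI-LY10, and no called value changed sign. The number of members called with both hairpins (4) ranged from 1 (without control replicate 1 or 3) to 7 (without shEGR1#8 replicate 2) when 1 library was left out, and it was 1 without the libraries numbered 3. For shEGR1#8 (4) the range was 1 to 5, with 1 on leaving out any single control library or shEGR1#9 replicate 2, 2 under the replicate block and 1 without the libraries numbered 3. For shEGR1#9 (3) the range was 1 to 3, with 1 on leaving out control replicate 1 or 3 or any single shEGR1#9 library, 2 under the block and 1 without the libraries numbered 3. Across all tested genes, same-numbered control and shEGR1 libraries did not deviate together (correlations of -0.188 to 0.0597), so the block is given only here. Single genes can differ from this, as SRSF1 was lowest in replicate 3 under each label. Same-numbered shEGR1#8 and shEGR1#9 libraries correlated at 0.134 to 0.26, and with the block 0 members were called between them, as without it. It also ended the calls of SNRPF (adjusted p = 0.0582), SRPK1 (0.0585), MBNL3 (0.0529) and UPF3A (0.0568), and with no filter SNRPF was at 0.0660. Over all genes, 908 were called, 368 without the libraries numbered 3, 313, 313 and 281 without control replicates 1, 2 and 3, and 535 and 538 without shEGR1#9 replicates 2 and 3. In TMD8 (13) a fold of 1 log2 left 2 members. The TMD8 count was 10 with a level of at least 5 FPKM, 11 with copies summed and 12 without centring. In SUDHL2 (1) a fold of 1 log2 left 0, as did summing copies, while a pseudocount of 0.1 FPKM gave 2, 1 higher and 1 lower. The causes were not tested. The log2 differences of HNRNPH3, HNRNPU, SRSF6, SRSF8 and SRSF10 changed sign among settings, none of them called.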
